A study of Arabidopsis thaliana with 12 samples.

Results

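The seed maturation genes described here are 42 Arabidopsis genes of 33078 nuclear loci in the authors' table. They comprise 5 genes of 2S albumins and 4 of cruciferins, which are the storage proteins of the seed, 8 genes of oil body proteins, 16 late embryogenesis abundant (LEA) genes, 1 peroxiredoxin gene, 2 genes of seed tonoplast aquaporins and 6 genes of maturation regulators. The genes were chosen by function and identifier at a time when earlier results of these same values were known, so their levels and changes are given as a description, with no test. Of the 42 genes, 41 were found under their own identifier at their own position. AT1G03890 was taken by position alone, because the authors' table lists that locus under AT1G03880, the identifier of *CRU2*. A further locus that carries the identifier of the caleosin gene *CLO1* (AT4G26740) lies at the position of another gene on chromosome 1 and was left out.

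RNA came from whole seedlings of the mutant *sig2-2*, a T-DNA insertion line in the nuclear gene of plastid sigma factor 2, and of its Col-0 wild type (WT). Both were grown on medium with 1% sucrose at 22°C and harvested after 1 day or 7 days of constant red (Rc) light of 50 μE. According to the paper, the seeds were stratified on the medium in the cold and dark before the light. The ages are thus counted from the start of the light. The 12 samples make 4 conditions, *sig2-2* and WT at each age, with 3 biological replicates each. The authors combined the 3 replicates into 1 FPKM value per gene and condition (a count of fragments corrected for transcript length and for library size), so no replicate error can be given, the number of reads behind each value is not given in the sources used here and no value has an n of its own. The transcript of *SIG2* was at 1.31 FPKM in *sig2-2*, against 66.5 FPKM in WT at 1 day, and at 1.49 FPKM in *sig2-2*, against 87.7 FPKM in WT at 7 days. One locus, AT2G01021, took from 5.45% (WT, 7 days) to 32.6% (WT, 1 day) of the summed FPKM, while the median of the 16872 loci at 1 FPKM or more in all conditions lay between 14.5 and 14.9 FPKM. The 4 markers of green tissue were above 0 in all conditions and summed to 3896 FPKM in *sig2-2* and 2779 FPKM in WT at 1 day, and to 57697 FPKM in *sig2-2* and 48739 FPKM in WT at 7 days. The higher sum at 7 days came from *CAB1* (35208 FPKM in *sig2-2*, against 16930 FPKM in WT), and the other 3 markers were lower in *sig2-2*.

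Late in seed development the embryo fills with storage proteins and oil and then prepares to dry out. 2S albumins and cruciferins are packed into protein storage vacuoles, oleosins and caleosins coat the oil bodies, and LEA proteins are hydrophilic proteins linked to the tolerance of drying. The programme is run by LEC1, the B3 factors ABI3, FUS3 and LEC2, and the bZIP factor ABI5, and by the hormone abscisic acid (ABA). B3 factors bind the RY element, which has the core CATGCA, and bZIP factors bind the ABA response element, which has the core ACGTG. Some of these transcripts are stored in the dry seed, and the programme is shut down as the seedling establishes.

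Promoter sequences are shown for 3 genes, the storage genes *SESA3* and *CRU3*, which were among those higher in *sig2-2* at 1 day, and the LEA gene *LEA18*, which was among those lower. Each is the run of 250 bases before the annotated gene start in the RefSeq annotation of TAIR10.1, read 5′ to 3′ on the strand of the gene. Capitals mark the cores CATGCA and ACGTG on either strand. The *SESA3* window is chr4:13611546-13611795 (plus strand), the *CRU3* window is chr4:14087306-14087555 (plus strand) and the *LEA18* window is chr2:14863413-14863662 (minus strand).
SESA3: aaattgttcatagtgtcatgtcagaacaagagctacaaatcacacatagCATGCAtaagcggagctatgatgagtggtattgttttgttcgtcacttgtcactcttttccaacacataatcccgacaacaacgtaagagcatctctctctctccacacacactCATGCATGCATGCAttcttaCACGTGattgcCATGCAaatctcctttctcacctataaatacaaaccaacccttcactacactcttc
CRU3: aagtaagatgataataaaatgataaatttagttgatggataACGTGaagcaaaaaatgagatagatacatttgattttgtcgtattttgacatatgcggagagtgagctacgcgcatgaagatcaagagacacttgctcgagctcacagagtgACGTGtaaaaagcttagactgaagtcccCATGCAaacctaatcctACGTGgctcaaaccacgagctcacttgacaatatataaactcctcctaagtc
LEA18: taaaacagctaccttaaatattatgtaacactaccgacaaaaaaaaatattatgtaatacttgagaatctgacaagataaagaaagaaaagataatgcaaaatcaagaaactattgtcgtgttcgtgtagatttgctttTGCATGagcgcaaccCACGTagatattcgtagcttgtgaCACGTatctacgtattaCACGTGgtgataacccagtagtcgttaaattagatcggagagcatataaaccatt
The *SESA3* window held the RY core at 7 positions and the ABA response core at 2, and the *CRU3* window held them at 1 and 3 positions. The counts were 1 and 4 in the *LEA18* window. Both strands were searched, so a palindrome such as the G-box CACGTG counts as 2 positions of ACGTG. Overlapping matches also count separately, and the longest run of capitals in the *SESA3* window holds several of its 7 RY positions.

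Over windows from 250 bases before to 50 bases after the start, the RY core was present in 64.3% of the 42 genes, against 9.72% of 27443 protein-coding genes. The ABA response core was present in 69% of the 42 genes, against 26.7% of the protein-coding genes. CACGTG, which contains ACGTG, was present in 45.2% and 7.68%. The classes differed in which core they held. All 5 2S albumin genes and all 8 oil body genes held the RY core, as did 3 of the 4 cruciferin genes, while 6 of the 16 LEA genes did. The ABA response core was found in 5 of 5 2S albumin genes, 1 of 4 cruciferin genes, 5 of 8 oil body genes and 14 of 16 LEA genes. *ABI5* alone of the 6 regulator genes held it, at 7 positions. These matches describe the letters of the windows and do not show that a factor binds there.

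**Figure D1:**
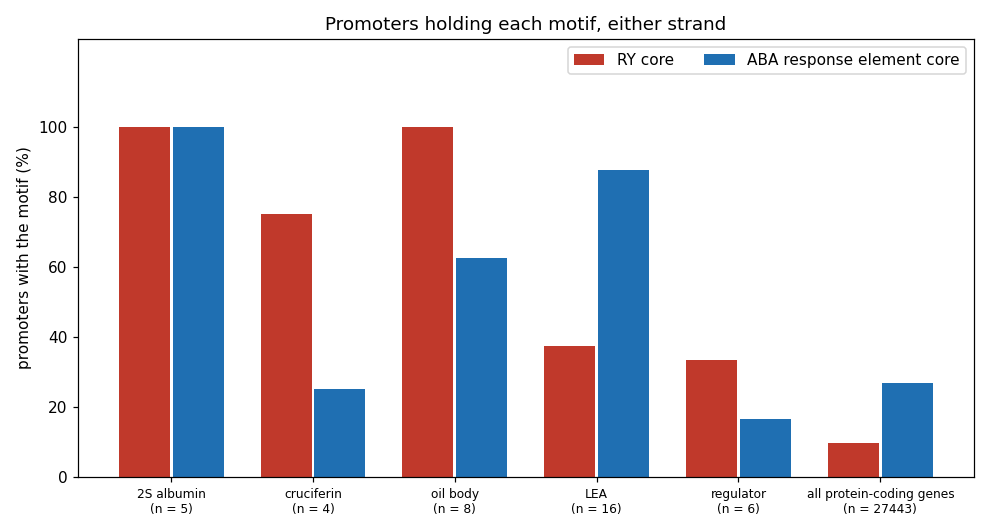
Share of promoters (%) that hold the RY core or the ABA response element core on either strand, for 5 classes of seed maturation genes and for 27443 protein-coding genes; n is the number of promoters. The RY core is in every 2S albumin and oil body promoter and in 37.5% of LEA promoters, and the ABA response core is in 87.5% of LEA promoters.

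At 1 day, the seed maturation genes moved in both directions in *sig2-2*. Storage protein transcripts were more abundant in the mutant, and 12 of the 16 LEA transcripts were less abundant. A gene is called higher or lower here when log2 of (*sig2-2* + 1)/(WT + 1) reached 2-fold. The added 1 FPKM damps changes at low levels. The words "rose" and "fell" are used only of called genes. By this rule 13 of the 42 genes were higher, against a background of 1.66% of all loci, and 8 were lower, against a background of 0.653%. Among the loci with a mean of 1 FPKM or more the backgrounds were 2.74% higher and 1.06% lower. With this filter 35 of the 42 genes remained, of which 13 were higher and 8 lower. By any amount, 20 genes were higher and 21 lower, against a background of 49.3% and 50.6% of loci. The median log2 change of the 42 genes was −0.04, and that of all loci was 0. Among the 200 of 33078 loci with the largest rises were 7 of the 42 genes, and among the 200 with the largest falls were 8. These genes are among the 13 and 8 already counted. In summed FPKM the 9 storage protein genes were at 169 in *sig2-2*, against 21.9 in WT. The 16 LEA genes were at 1305 in *sig2-2*, against 2976 in WT.

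**Figure D2:**
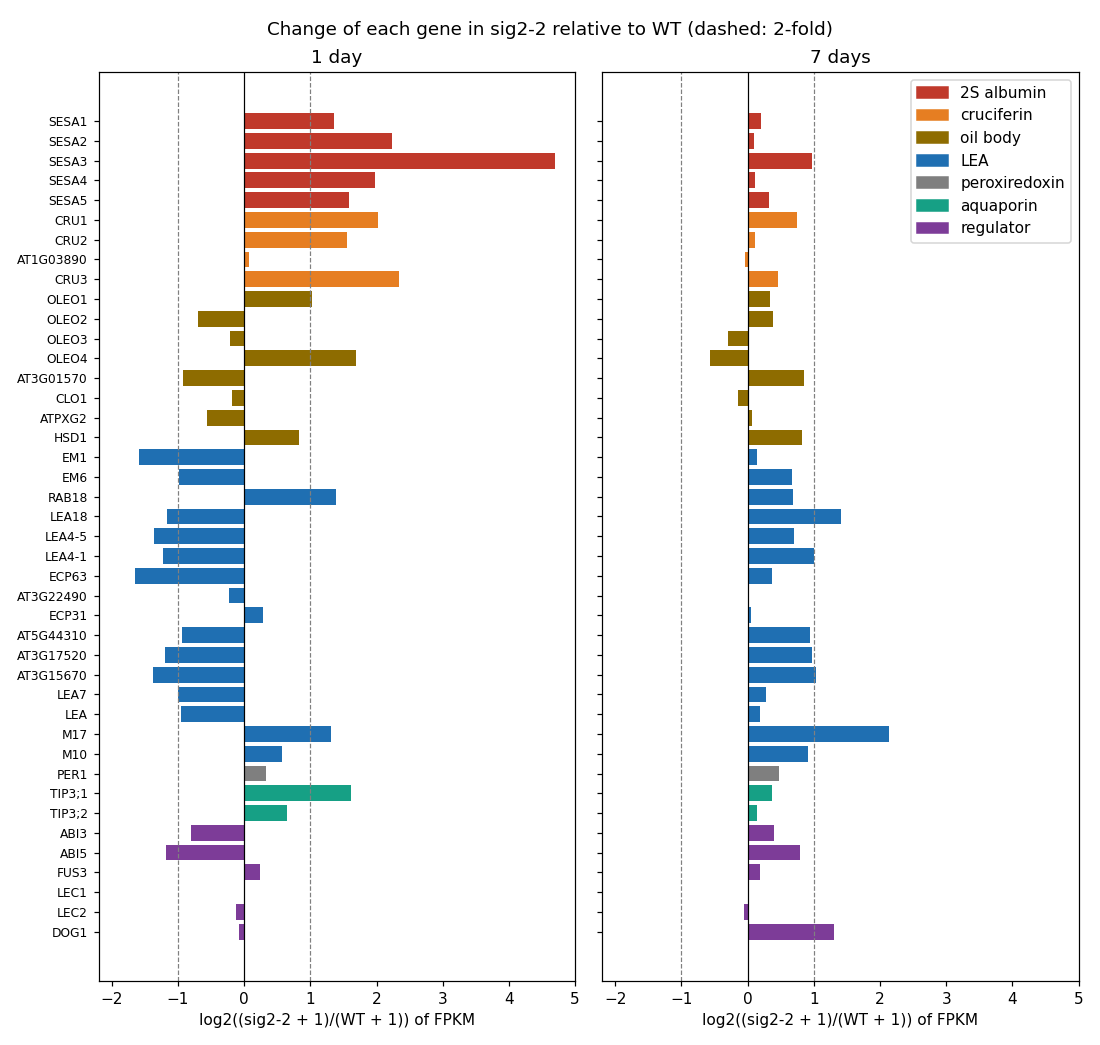
Change of each of the 42 genes as log2((*sig2-2* + 1)/(WT + 1)) of FPKM at 1 day (left) and 7 days (right), coloured by class, with 2-fold marked by dashed lines; each bar comes from 1 combined value per condition. At 1 day all 5 2S albumin genes extend to the right, up to 4.70 for *SESA3*, and most LEA genes to the left, down to −1.64 for *ECP63*. At 7 days no gene reaches −1.

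In whole seedlings, a larger share of cells of a type and more RNA per cell cannot be told apart. Of 5 markers of the endosperm at germination, 1 was higher and 1 was lower in *sig2-2* at 1 day. *EPR1* (AT2G27380), an extensin-like gene of the endosperm, was at 490 FPKM in *sig2-2*, against 27.4 FPKM in WT, whereas *EXPA2* (AT5G05290), an expansin gene of the same tissue, was at 106 FPKM in *sig2-2*, against 244 FPKM in WT. The 5 markers summed to 615 FPKM in *sig2-2* and 296 FPKM in WT, and none of them was at 0 at 1 day. The higher sum in *sig2-2* came from *EPR1*. By any amount, 2 of the 5 markers were higher in *sig2-2* and 3 were lower. All 3 root hair markers were higher at 1 day, with a sum of 64.5 FPKM in *sig2-2*, against 10.8 FPKM in WT, and at 7 days the sum was 3.36 FPKM in *sig2-2*, against 9.98 FPKM in WT. The part of these differences in the levels of the seed maturation genes was not tested.

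The 2S albumins are small, sulfur-rich storage proteins, and 4 of their 5 genes lie next to each other on chromosome 4, from 13607329 (start of *SESA1*) to 13614283 (end of *SESA4*). All 5 rose in *sig2-2* at 1 day, with a median log2 change of 1.98. *SESA3* (AT4G27160, chromosome 4 from 13611796 to 13612563) was at 67.2 FPKM in *sig2-2*, against 1.63 FPKM in WT at 1 day (log2 change 4.70), and at 0.967 FPKM in *sig2-2* and 0 in WT at 7 days. *SESA2* (AT4G27150) was at 27.3 FPKM in *sig2-2*, against 5.04 FPKM in WT at 1 day (log2 change 2.23), and at 7 days the levels were 0.0694 FPKM in *sig2-2* and 0 in WT. The neighbours in the cluster thus rose by different amounts, 41.3-fold for *SESA3* and 5.42-fold for *SESA2* as ratios of FPKM. *SESA5* (AT5G54740), which lies apart on chromosome 5, was at 12.7 FPKM in *sig2-2*, against 3.56 FPKM in WT at 1 day (log2 change 1.59), and at 7 days the levels were 0.248 FPKM in *sig2-2* and 0 in WT. *SESA1* and *SESA4* were lower in level, at 4.79 and 5.78 FPKM in *sig2-2*, against 1.26 and 0.724 FPKM in WT at 1 day. The order of the genes also differed. In *sig2-2* at 1 day *SESA3* had the highest level of the 5 genes, whereas in WT *SESA2* and *SESA5* were both above *SESA3*. Although these genes are related, every stretch of 55 nt in their exons, which is the length of the reads, occurred once in the TAIR10.1 genome.

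Cruciferins are the large globulins of the protein storage vacuole. Of their 4 genes 3 rose in *sig2-2* at 1 day. *CRU1* (AT5G44120, listed as CRA1, chromosome 5 from 17756264 to 17758288) was at 27.7 FPKM in *sig2-2*, against 6.05 FPKM in WT at 1 day (log2 change 2.02), and at 1.22 FPKM in *sig2-2* and 0.320 FPKM in WT at 7 days. *CRU3* (AT4G28520, chromosome 4 from 14087556 to 14089796) was at 21.1 FPKM in *sig2-2*, against 3.37 FPKM in WT at 1 day (log2 change 2.34), and at 7 days the levels were 0.374 FPKM in *sig2-2* and 0 in WT. Both were thus several times as abundant in the mutant at the first age and close to 0 in both genotypes at the second. *CRU2* (AT1G03880) was at 2.13 FPKM in *sig2-2*, against 0.0671 FPKM in WT at 1 day. AT1G03890, its neighbour on chromosome 1, was at or under 0.252 FPKM in all conditions (log2 change 0.07 at 1 day).

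Oil body proteins did not share a direction. Of the 8 genes, 2 rose, none fell by 2-fold, 3 were higher by any amount and 5 lower, and their summed level was 121 FPKM in *sig2-2*, against 172 FPKM in WT at 1 day. Among the oleosins, *OLEO1* (AT4G25140) was at 10.5 FPKM in *sig2-2*, against 4.64 FPKM in WT at 1 day (log2 change 1.03, just past 2-fold), and at 7 days the levels were 0.334 FPKM in *sig2-2* and 0.0522 FPKM in WT. *OLEO4* (AT3G27660) rose to 4.21 FPKM in *sig2-2*, against 0.615 FPKM in WT (log2 change 1.69). The other 3 oleosin genes were lower in *sig2-2*, by less than 2-fold. AT3G01570, annotated as an oleosin, was at 47.2 FPKM in *sig2-2*, against 90.6 FPKM in WT at 1 day (log2 change −0.93), and at 7 days the levels were 1.81 FPKM in *sig2-2* and 0.559 FPKM in WT. *OLEO2* (AT5G40420) was at 16.1 FPKM in *sig2-2*, against 26.7 FPKM in WT at 1 day (log2 change −0.69), and at 7 days the levels were 0.672 FPKM in *sig2-2* and 0.279 FPKM in WT. *OLEO3* (AT5G51210) was at 39.2 FPKM in *sig2-2*, against 45.8 FPKM in WT at 1 day (log2 change −0.22), and at 7 days the levels were 0.458 FPKM in *sig2-2* and 0.797 FPKM in WT. Of these 5 oleosin genes, 2 were thus higher in the mutant at 1 day and 3 were lower. The caleosin genes *CLO1* and *ATPXG2*, whose products bind calcium at the oil body, and the steroleosin gene *HSD1* were at or under 1.83 FPKM in every condition. None of the 55 nt stretches of the *HSD1* exons occurred once in the genome, and the table lists another locus, AT5G50700, as HSD1, so the value of this gene is uncertain.

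LEA transcripts were the most abundant of the 42 genes. Of the 16 LEA genes, 12 were lower in *sig2-2* at 1 day by any amount and 4 were higher. The LEA genes *LEA18*, *LEA4-5* and *LEA4-1*, taken here as 1 family, all fell. *LEA18* (AT2G35300, chromosome 2 from 14862901 to 14863387) was at 297 FPKM in *sig2-2*, against 670.2 FPKM in WT at 1 day (log2 change −1.17), and at 7.42 FPKM in *sig2-2*, against 2.18 FPKM in WT at 7 days (log2 change 1.41). *LEA4-5* (AT5G06760) was at 197 FPKM in *sig2-2*, against 507 FPKM in WT at 1 day (log2 change −1.36), and at 7 days the levels were 3.38 FPKM in *sig2-2* and 1.69 FPKM in WT. *LEA4-1* (AT1G32560) was at 96.6 FPKM in *sig2-2*, against 229 FPKM in WT at 1 day (log2 change −1.23), and at 2.65 FPKM in *sig2-2*, against 0.815 FPKM in WT at 7 days (log2 change 1.01). The 3 genes were each lower in the mutant at the first age and higher at the second, at levels that were then many times lower in both genotypes.

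The 5 genes of another family, annotated as LEA or embryonic cell proteins, were all lower in *sig2-2* at 1 day and higher at 7 days, 3 of them past 2-fold at the first age and 1 at the second. AT3G15670 (chromosome 3 from 5309886 to 5310988) was at 248 FPKM in *sig2-2*, against 646 FPKM in WT at 1 day (log2 change −1.37), and at 2.03 FPKM in *sig2-2*, against 0.472 FPKM in WT at 7 days (log2 change 1.04). *ECP63* (AT2G36640) had the largest fall of the 42 genes, to 34.1 FPKM in *sig2-2*, against 109 FPKM in WT at 1 day (log2 change −1.64), and at 7 days the levels were 0.398 FPKM in *sig2-2* and 0.0850 FPKM in WT. AT3G17520 was at 81.4 FPKM in *sig2-2*, against 187 FPKM in WT at 1 day (log2 change −1.19), and at 7 days the levels were 2.33 FPKM in *sig2-2* and 0.696 FPKM in WT. The other two of this family stopped just short of 2-fold. *LEA7* (AT1G52690) was at 157 FPKM in *sig2-2*, against 314 FPKM in WT at 1 day (log2 change −0.997), and at 7 days the levels were 2.64 FPKM in *sig2-2* and 2.01 FPKM in WT. The gene overlaps another coding gene by 297 bases in TAIR10.1. AT5G44310 was at 94.8 FPKM in *sig2-2*, against 183 FPKM in WT at 1 day (log2 change −0.95), and at 7 days the levels were 0.930 FPKM in *sig2-2* and 0 in WT.

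Em proteins are small LEA proteins of the late embryo whose genes are classic targets of ABI3 and ABI5. *EM1* (AT3G51810) fell to 15.4 FPKM in *sig2-2*, against 48.4 FPKM in WT at 1 day (log2 change −1.59), and at 7 days the levels were 0.190 FPKM in *sig2-2* and 0.0756 FPKM in WT. *EM6* (AT2G40170) was at 10.7 FPKM in *sig2-2*, against 22.1 FPKM in WT at 1 day (log2 change −0.98, short of 2-fold), and at 7 days the levels were 1.504 FPKM in *sig2-2* and 0.569 FPKM in WT. Both Em genes were lower in the mutant at 1 day and higher at 7 days, when the added 1 FPKM kept both short of 2-fold. Of the dehydrins, a LEA family that also responds to cold and drought outside the seed, the gene named *LEA* (AT2G21490) was at 19.2 FPKM in *sig2-2*, against 38.1 FPKM in WT at 1 day (log2 change −0.95), and at 7 days the levels were 0.233 FPKM in *sig2-2* and 0.0831 FPKM in WT. *RAB18* (AT5G66400), an ABA-responsive dehydrin gene, rose. It was at 30.8 FPKM in *sig2-2*, against 11.2 FPKM in WT at 1 day (log2 change 1.39), and at 7 days it was at 13.1 FPKM in *sig2-2* and 7.71 FPKM in WT (log2 change 0.69).

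*M17* and *M10*, which lie close together on chromosome 2, were also higher in the mutant. *M17* (AT2G41260) was at 10.8 FPKM in *sig2-2*, against 3.77 FPKM in WT at 1 day (log2 change 1.31), and at 4.85 FPKM in *sig2-2*, against 0.334 FPKM in WT at 7 days (log2 change 2.13), the largest change of the 42 genes at that age. *M10* (AT2G41280) was at 7.77 FPKM in *sig2-2*, against 4.92 FPKM in WT at 1 day, and at 7 days the levels were 0.889 FPKM in *sig2-2* and 0 in WT. Of the 55 nt stretches of the *M17* exons, 53.9% occurred once in the genome. The seed maturation protein genes AT3G22490 and *ECP31* lay between 1.03 and 1.72 FPKM at 1 day and moved by less than 2-fold. The LEA class thus held 7 genes that fell, 2 that rose (*RAB18* and *M17*) and 7 that did neither at 1 day.

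Tonoplast aquaporins of the TIP3 group sit in the membrane of the protein storage vacuole. *TIP3;1* (AT1G73190) rose to 4.55 FPKM in *sig2-2*, against 0.805 FPKM in WT at 1 day (log2 change 1.62), and *TIP3;2* (AT1G17810) was at 1.29 FPKM in *sig2-2*, against 0.468 FPKM in WT. Both were higher in the mutant, and in TAIR10.1 they overlap another coding gene by 290 and 91 bases. *PER1* (AT1G48130), a seed antioxidant of the peroxiredoxin family, was at 15.2 FPKM in *sig2-2*, against 11.9 FPKM in WT at 1 day (log2 change 0.33), and at 7 days the levels were 1.40 FPKM in *sig2-2* and 0.725 FPKM in WT.

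Of the regulators, the 2 at 1 FPKM or more at 1 day were both lower in *sig2-2*. *ABI3* (AT3G24650, chromosome 3 from 8997370 to 9001063), a B3 activator of storage and LEA genes, was at 36.4 FPKM in *sig2-2*, against 64.1 FPKM in WT at 1 day (log2 change −0.80), and at 7 days the levels were 0.439 FPKM in *sig2-2* and 0.0933 FPKM in WT. *ABI5* (AT2G36270, chromosome 2 from 15204764 to 15207528), the bZIP factor that arrests growth after germination under ABA, fell to 22.7 FPKM in *sig2-2*, against 52.7 FPKM in WT at 1 day (log2 change −1.18), and at 7 days it was at 2.78 FPKM in *sig2-2* and 1.17 FPKM in WT (log2 change 0.80). The regulators of the earlier embryo were close to 0. *LEC1* (AT1G21970) was listed at 0 in all 4 conditions. *FUS3* (AT3G26790) was at 0.175 FPKM in *sig2-2* and 0 in WT at 1 day, and at 0.144 FPKM in *sig2-2* and 0 in WT at 7 days. *LEC2* (AT1G28300) was listed at 0 in *sig2-2* at both ages, and at 0.0871 FPKM in WT at 1 day and 0.0330 FPKM in WT at 7 days. With the reads behind each value not given, these low values are given as listed and read neither as presence nor as absence.

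**Figure D3:**
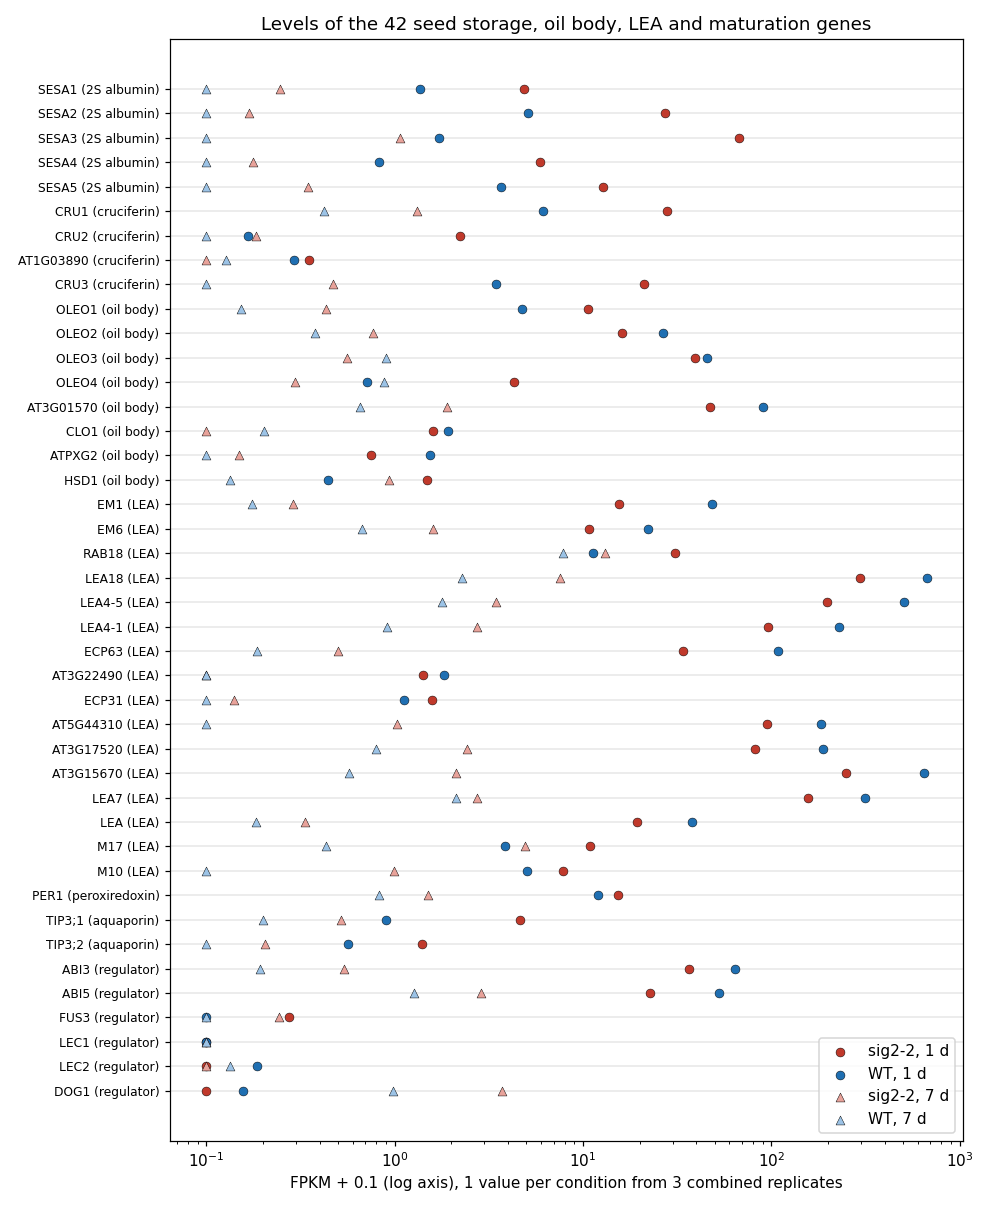
FPKM (with 0.1 added, log axis) of the 42 genes in *sig2-2* and WT at 1 day (circles) and 7 days (triangles), 1 combined value per condition with no error. The red circles lie right of the blue ones for the 2S albumins and left of them for 12 of the 16 LEA genes, and the triangles lie left of the circles for nearly all genes.

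At 7 days the 42 genes leaned one way. Of the 40 genes above 0 in either genotype, 35 were higher in *sig2-2* by any amount, against a background of 49.9%, and 5 were lower, against a background of 50.1%. Many of these differences lay between low values. Of the 35 genes, 13 were listed at 0 in WT, and of the 42 genes 14 reached 1 FPKM in *sig2-2* and 5 in WT. By 2-fold, 5 genes were higher, against a background of 2.71%, and none was lower, against a background of 2.35%. Among loci with a mean of 1 FPKM or more these backgrounds were 4.33% and 3.73%. With this filter 13 of the 42 genes remained, the same 5 higher ones among them and none lower. Those that rose were *M17*, *LEA18*, *LEA4-1*, AT3G15670 and *DOG1*. With a pseudocount of 0.1, 24 genes were higher and 2 lower, since most values at this age were under 1 FPKM. The share of all loci at that pseudocount was not computed, so the backgrounds above do not apply to those counts. The 8 genes that had fallen at 1 day were all higher by any amount at 7 days, as were 12 of the 13 that had risen. The matching shares among all loci that fell or rose at 1 day were not computed, so these counts have no background. In summed level the 42 genes were at 59.0 FPKM in *sig2-2*, against 22.7 FPKM in WT, and the LEA genes made up 42.5 and 16.7 FPKM of this. *RAB18* had the highest level of the 42 genes at this age in both genotypes.

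The storage protein genes were at low levels by then. In WT at 7 days, 7 of the 9 were listed at 0, and all 7 were listed above 0 in *sig2-2*, with the highest, *SESA3*, at 0.967 FPKM. Of all loci at 0 in WT at 7 days, 9.16% were listed above 0 in *sig2-2*. That set was not limited to loci listed above 0 at 1 day, as all 9 storage genes were in both genotypes, so the comparison is between unlike sets. *DOG1* (AT5G45830), a gene of seed dormancy, was at 3.64 FPKM in *sig2-2*, against 0.882 FPKM in WT at 7 days (log2 change 1.30), and at 0 in *sig2-2* and 0.0564 FPKM in WT at 1 day. By 2-fold, it was the 1 gene higher at 7 days than at 1 day in *sig2-2*, against a background of 12.3% (log2 change 2.21), while none of the 42 was in WT, against a background of 12% (log2 change 0.83 for *DOG1*). With a pseudocount of 0.1 or a threshold of 1.5-fold, 1 gene was higher with age in WT as well.

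Between the ages, most of these genes fell in both genotypes. By 2-fold, 35 of the 42 genes were lower at 7 days than at 1 day in *sig2-2*, against a background of 9.58%, and 30 were in WT, against a background of 8.43%. Among loci with a mean of 1 FPKM or more, 15.7% were lower and 19.4% higher in *sig2-2*, and 13.9% were lower and 18.7% higher in WT. The counts of 35 and 30 are of all 42 genes, without this filter. The median log2 change with age was −2.71 in *sig2-2* and −2.30 in WT, an order that turned with a pseudocount of 0.1 (−4.35 in *sig2-2* and −4.57 in WT) and with genes of a mean under 1 FPKM left out (−3.69 in *sig2-2* and −4.70 in WT). For LEA genes it was −4.33 in *sig2-2* and −6.09 in WT, and 3.26% of their summed level at 1 day was left at 7 days in *sig2-2*, against 0.562% in WT. For 2S albumins it was −3.46 in *sig2-2* and −1.39 in WT, where the levels at 1 day were lower and all 5 genes were listed at 0 at 7 days, and 1.28% of their summed level was left in *sig2-2*, against 0% in WT. These comparisons share their conditions with those between genotypes and restate the levels at each age. *RAB18* alone of the 16 LEA genes did not fall by 2-fold in WT, where it was at 7.71 FPKM at 7 days, against 11.2 FPKM at 1 day.

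**Figure D4:**
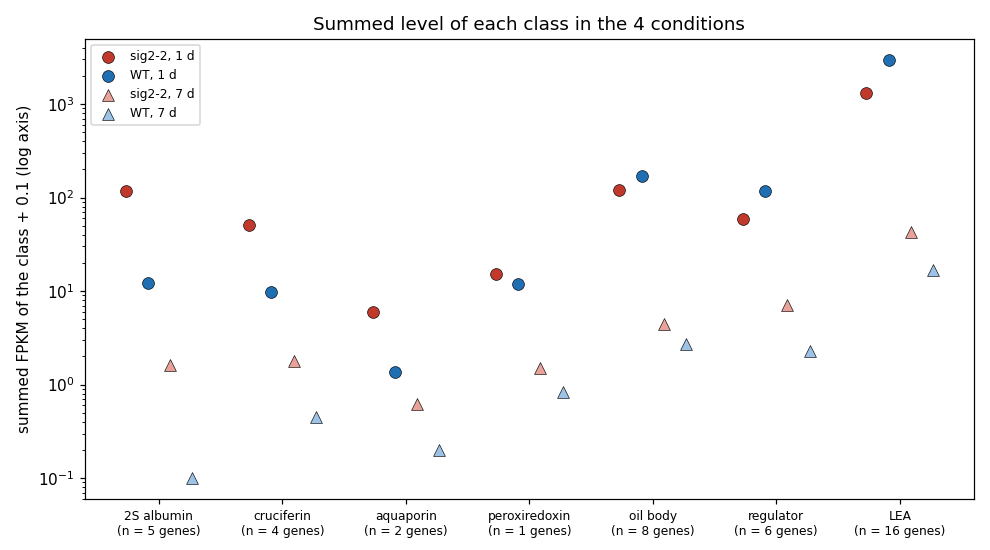
Summed FPKM of each class (with 0.1 added, log axis) in *sig2-2* and WT at 1 day (circles) and 7 days (triangles), 1 value per condition with no error; n is the number of genes. At 1 day the 2S albumin, cruciferin, aquaporin and peroxiredoxin sums are higher in *sig2-2*, and the oil body, regulator and LEA sums are lower. At 7 days every sum is higher in *sig2-2*.

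Other genes of the programme were taken from lists written from knowledge of the pathway, with earlier results known. Of 9 other genes for storage proteins and their processing, 8 were placed in the table, and of these 1 was higher and 2 were lower at 1 day. *PAP85* (AT3G22640), a vicilin-like storage protein gene, rose to 5.61 FPKM in *sig2-2*, against 1.25 FPKM in WT (log2 change 1.56). Another 2 genes on this list fell, AT2G18540 to 4.00 FPKM in *sig2-2*, against 11.3 FPKM in WT, and AT4G36700 to 4.16 FPKM in *sig2-2*, against 10.7 FPKM in WT. The list did not share a direction. Among 35 other LEA and dehydrin genes, 4 were lower and none higher at 1 day, and 3 were higher and 2 lower at 7 days. Over all loci the shares were 1.66% higher and 0.653% lower at 1 day, and 2.71% higher and 2.35% lower at 7 days. The falls at 1 day included AT2G18340 (3.49 FPKM in *sig2-2*, against 12.03 FPKM in WT), AT4G36600 (18.8 FPKM in *sig2-2*, against 52.6 FPKM in WT) and AT1G72100 (15.4 FPKM in *sig2-2*, against 41.1 FPKM in WT). The fourth, AT3G02480, is named after its values were seen. It was at 1182 FPKM in *sig2-2*, against 2586 FPKM in WT at 1 day (log2 change −1.13), and at 21.3 FPKM in *sig2-2*, against 9.73 FPKM in WT at 7 days (log2 change 1.06). *SAG21* (AT4G02380), also named after its values were seen, had the largest rise on this list at 7 days. It was at 1772 FPKM in *sig2-2*, against 243 FPKM in WT (log2 change 2.86). At 1 day it was not lower in *sig2-2* (log2 change 0.24). Of 10 other oleosin, caleosin and steroleosin genes, 1 was lower, the oleosin AT2G25890, at 10.5 FPKM in *sig2-2*, against 26.2 FPKM in WT (log2 change −1.25). None of 8 other maturation factors and none of 10 repressors and chromatin regulators of the programme, among them *PKL* and *CLF*, reached 2-fold at either age.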

How the data were processed

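Whole-seedling mRNA was sequenced in 12 samples of 4 conditions. The deposited FPKM values were made by the authors with Cufflinks and Cuffdiff, which combined the 3 replicates of a condition into 1 value. Versions, aligner, annotation and genome build are not given in the sources used here. The table of all conditions also holds the authors' own log2 ratios, test statistics, p-values and q-values, which were not used, and 4 lines of notes, which were left out. Its header names no unit, and FPKM is the unit that Cuffdiff writes. For the loci used, the tables of single conditions (33349 loci each) held identical values.

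The 42 genes and all lists were chosen with earlier results of these data known, and the LEA genes were divided into families after their values were seen. Genes were placed by identifier and overlap with TAIR10.1, in which 12583 of 32386 loci had the same start. Positions are those of the authors' table, counted from 1. In TAIR10.1, 8 of the 42 genes overlap another coding gene, by at most 297 bases (*LEA7*), and the strand of the reads is not given in the sources used here. Changes are log2 ratios with a pseudocount of 1 FPKM, and 2-fold is the threshold. With 1 value per condition no test was made, and precision cannot be stated since the reads behind each value are not given in the sources used here. Values in each condition are printed for genes at 10 FPKM or more in any condition and for all regulators. Of the other lists, at most 3 genes each are named by rule, past 2-fold and at 5 FPKM or more. AT3G02480 and *SAG21* were added to these after their values were seen. Promoters came from the TAIR10.1 sequence. The alternatives were a pseudocount of 0.1, 2 other scalings, a filter at a mean of 1 FPKM, the tables of single conditions, and thresholds of 1.5-fold and 4-fold. The calling of changed loci was tested on simulated data, with 4-fold changes at loci of higher level only. Changes at low levels and the motif counts were not covered by it. Python 3.11.15, pandas 2.3.3, numpy 2.4.6 and matplotlib 3.10.9 were used.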

Additional observations from a re-analysis of the deposited data

Results flagged for a closer look

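For 3 of the 16 LEA genes among the 42 the difference between *sig2-2* and WT passed 2-fold in opposite directions at the 2 ages. The log2 changes were −1.17 at 1 day and 1.41 at 7 days for *LEA18*, −1.23 and 1.01 for *LEA4-1*, and −1.37 and 1.04 for AT3G15670. The difference between the ages was not tested, because each condition has 1 combined value. Of the 42 genes, 8 were lower by 2-fold at 1 day, and these 3 were the ones among the 8 that were higher by 2-fold at 7 days. Of the 216 loci that were lower by 2-fold at 1 day, 15.7% were higher by 2-fold at 7 days. That share is to be set beside 3 of 8, not 3 of 16.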

How the results depend on the processing

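No paired analysis was possible because the columns hold 1 combined value per condition and no replicate, and no replicate could be left out. No gene of the 42 changed direction between genotypes under the 2 other scalings, the alternatives that could turn one. The scalings moved the median of all expressed loci by −0.03 to 0.03. A pseudocount of 0.1 changed the call of 6 genes at 1 day and of 21 at 7 days. At 7 days it gave 24 genes higher and 2 lower, and a median log2 change of 1.22. For the change with age it gave medians of −4.35 in *sig2-2* and −4.57 in WT, and 1 gene higher at 7 days in WT. With genes of a mean under 1 FPKM left out, those medians were −3.69 in *sig2-2* and −4.70 in WT, and in both settings the order of the genotypes turned. Centring on the median left *LEA4-1* short of 2-fold at 7 days. At 1.5-fold, 15 genes were lower at 1 day, 16 were higher at 7 days, and 1 was higher with age in WT. At 4-fold, 4 genes were higher and 0 lower at 1 day, and 1 was higher at 7 days. Shares over all loci were computed only at 2-fold with a pseudocount of 1 FPKM. The counts at a pseudocount of 0.1, at 1.5-fold and at 4-fold thus have no background. Without *SESA3*, an alternative chosen after seeing the data, 12 genes were higher at 1 day. The lack of replicate values and of the reads behind each value is a limit for all results, levels under 1 FPKM included.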

Other observations

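Of 17 genes that act on ABA, dormancy and germination, 3 were lower and none higher in *sig2-2* at 1 day, and 3 were higher and 1 was lower at 7 days. Over all loci the shares were 1.66% higher and 0.653% lower at 1 day, and 2.71% higher and 2.35% lower at 7 days. *SOM* (AT1G03790), which represses germination, was at 19.8 FPKM in *sig2-2*, against 50.8 FPKM in WT at 1 day, and at 2.37 FPKM in *sig2-2*, against 0.560 FPKM in WT at 7 days. *AFP1* (AT1G69260), whose product binds ABI5, was at 7.43 FPKM in *sig2-2*, against 16.2 FPKM in WT at 1 day, and at 11.2 FPKM in *sig2-2*, against 3.34 FPKM in WT at 7 days. *CYP707A2* (AT2G29090), an enzyme gene of ABA breakdown, was lower at both ages, at 6.09 FPKM in *sig2-2*, against 15.4 FPKM in WT at 1 day, and at 0.846 FPKM in *sig2-2*, against 3.11 FPKM in WT at 7 days.

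Genes of the glyoxylate cycle and oil mobilisation numbered 14. None passed 2-fold at 1 day, and *ICL* (AT3G21720) was at 5310.5 FPKM in *sig2-2*, against 4368 FPKM in WT. At 7 days 3 were higher, against 2.71% of all loci, with *ICL* at 35.2 FPKM in *sig2-2*, against 1.25 FPKM in WT.

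The locus on chromosome 1 that the authors' table lists under the identifier of *CLO1*, from 11601781 to 11605060, was at 121 FPKM in *sig2-2* and 104 FPKM in WT at 1 day. The older seedlings had 64.1 FPKM (*sig2-2*) and 70.3 FPKM (WT). A search by identifier alone would give these values to the caleosin gene, which was at 1.51 FPKM in *sig2-2* and 1.83 FPKM in WT at 1 day.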
